A study of Homo sapiens with 12 samples.

Results

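KYSE410 and KYSE150, established cell lines labelled as esophageal cancer and as wild type in genotype, were compared with each other after 48 h at 0.5% oxygen (hypoxia). The comparison rests on 6 of the 12 libraries of the study, 3 per line. Genes of the 2 lines were joined by symbol, with a gene listed in only 1 line's table counted as 0 in the other, and a gene was tested if its mean over these 6 libraries was at least 1 FPKM (a fragment count divided by transcript length and library size). That kept 12575 of 34694 genes. The other 6 libraries are the same lines at 21% oxygen (normoxia), 3 per line, and they served only to ask which differences between the lines hold, appear or vanish in low oxygen. The labels give those cultures a time of 0 h without hypoxia, while the series design gives 48 h for both oxygen levels. Each line is a single established line, so a difference between them belongs to these 2 lines, and no label says that replicates were separate cultures.

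Cells sense oxygen through prolyl hydroxylases, which mark the alpha subunits of the hypoxia-inducible factors HIF-1 and HIF-2 for destruction while oxygen is present. When oxygen falls, the factors persist and switch on genes for glucose uptake, glycolysis, pH control and vessel growth. Squamous cells of the esophagus express basal keratins, the transcription factor p63 and the adhesion proteins of desmosomes, and squamous tumour cells can lose this program and take on mesenchymal features.

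All differences below are KYSE410 minus KYSE150 on the log2(FPKM + 1) scale, so a positive value is higher in KYSE410. At low levels this scale understates a change. In hypoxia, 10731 of 12575 genes (85.3%) passed limma at a Benjamini-Hochberg adjusted p under 0.05, which left 1844 that did not. There were 4891 genes higher in KYSE410 (38.9%) and 5840 lower (46.4%). The size was at least 1 for 1598 of the higher genes (12.7%) and 2382 of the lower ones (18.9%). The 3 values of one line did not overlap with the 3 of the other for 10848 genes (86.3%). A call alone therefore says little in this pair of lines, and sizes and levels are given for each gene. Counts of list members that were higher or lower stand against the 38.9% and 46.4% of all genes. The median gene stood at -0.09. It moved to -0.03 with median-of-ratios scaling, to -0.21 after scaling to a common sum and to 0.06 after quantile normalization.

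Same-group hypoxia libraries correlated at r = 0.9938 to 0.9969 across genes on the log2 scale. KYSE150 normoxia replicate 2 stood apart: the SD of its log2 differences from its 2 group members was 0.332 and 0.362, while no other pair of libraries of the same group exceeded 0.197. Every statement about a difference that holds, appears or vanishes uses that library, and values without it are given beside the class counts of all genes and of lists. The sample numbers in the labels run from 50 to 58 through KYSE150 normoxia, KYSE150 hypoxia and KYSE410 hypoxia, while KYSE410 normoxia has 38 to 40, so in KYSE410 the oxygen level and this break in numbering cannot be told apart. The files hold FPKM without read totals, so the depth is unknown. The FPKM values of a hypoxia library summed to between 377909 and 382990 in KYSE150 and between 415926 and 425094 in KYSE410. In normoxia KYSE150 had the higher sums, 366156 to 413967 against 351500.5 to 356994 in KYSE410. The 2 lines were deposited in separate tables, and every level set across them assumes that both were scaled alike.

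To compare the line difference across oxygen levels, all 12 libraries were fitted together over 13423 genes that averaged 1 FPKM or more at either level. A difference was said to hold where it passed at both levels in the same direction with a size of at least 1 at each. It appeared where it was at least 1 in hypoxia and under 0.5 in normoxia, and vanished in the reverse case. It turned where it passed at both levels in opposite directions with at least 0.5 at each. For the last 3 classes the difference between the 2 line differences had to pass as well, which it did for 8479 genes (63.2%), 3705 with a positive value (27.6%) and 4774 with a negative one (35.6%). A size under 0.5 could still pass, so appeared and vanished do not mean that the lines were equal at the other level. The lines still did not overlap in hypoxia in 199 of 279 vanished differences with KYSE410 higher and 168 of 224 with it lower. In normoxia they already did not overlap in 129 of 269 that appeared with KYSE410 higher and 223 of 392 with it lower.

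Differences that held were the most common class. There were 995 genes higher in KYSE410 at both levels (7.41%) and 1584 lower at both (11.8%). In hypoxia 269 differences appeared with KYSE410 higher (2.0%) and 392 with KYSE410 lower (2.92%). There were 279 vanished differences in which KYSE410 was higher in normoxia (2.08%) and 224 in which it was lower (1.67%). In 87 genes KYSE410 turned from lower to higher (0.648%) and in 158 from higher to lower (1.18%), and 9435 genes fell in no class. Across genes, which are not independent replicates, the line difference in hypoxia followed that in normoxia with Pearson r = 0.848 and Spearman rho = 0.749. Without KYSE150 normoxia replicate 2 the counts were 999 and 1594 for held, 242 and 381 for appeared, 218 and 185 for vanished, and 71 and 133 for turned, in the same order of direction. Scaling to a common sum moved the balance, to 155 and 602 for appeared, 496 and 134 for vanished and 41 and 271 for turned. Membership moved as well: after quantile normalization 182 of the 269 and 229 of the 392 differences that appeared kept their class, and after removal of a trend on transcript length and GC content 144 and 242 did. With that trend removed, 135 of the 279 and 123 of the 224 that vanished kept their class. So did 39 of the 87 and 90 of the 158 that turned, and 880 of the 995 and 1418 of the 1584 that held. Scaling to a common sum kept 275 and 129 of those that vanished and 41 and 158 of those that turned.

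**Figure D1:**
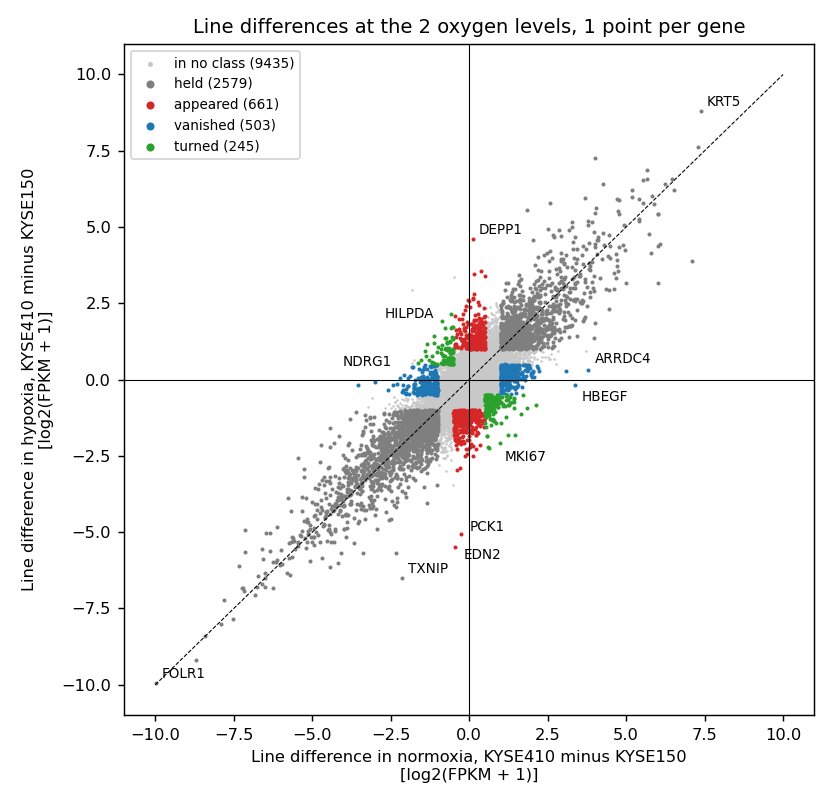
Each point is 1 of 13423 genes, with the line difference in normoxia on the x axis and in hypoxia on the y axis, both as KYSE410 minus KYSE150 in log2(FPKM + 1); colours mark the classes and the dashed line marks equal differences. KRT5 and FOLR1 lie at the ends of the diagonal at 8.79 and -9.94 in hypoxia, while EDN2 at -5.47 and DEPP1 at 4.61 differ almost only in hypoxia.

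The medians of the 2 lines moved in opposite directions among differences that appeared, which need not hold for a single gene. For the genes that became lower in KYSE410, the median change from normoxia to hypoxia was 0.34 in KYSE150 and -0.83 in KYSE410. For those that became higher it was -0.29 in KYSE150 and 0.82 in KYSE410. Of the 279 differences that vanished from above, KYSE410 moved more than KYSE150 in 237, with a median change of -1.10 in KYSE410 and 0 in KYSE150. Of the 224 that vanished from below it did so in 118, with medians of 0.64 and -0.43. Among 2579 held differences the change in size passed in 1534, of which 761 were wider in hypoxia and 773 narrower.

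The list of basal and stress-linked squamous keratins had the largest median line difference of the lists with at least 6 genes tested, at both oxygen levels. KRT5, a basal keratin (chromosome 12, 52514575 to 52520394), had 0.121, 0.032 and 0.0805 FPKM in the KYSE150 hypoxia libraries and 483, 470.0 and 479 in those of KYSE410. No KYSE150 library came near the KYSE410 level. The difference was 8.79 ± 0.04 (SE, limma adjusted p = 5.557e-12), the largest positive value among genes with at least 5 FPKM in one line. In normoxia KYSE410 had 168 FPKM, and all 3 KYSE150 libraries were listed at 0. KRT15, a keratin of basal cells, had 0.289, 0.316 and 0.124 FPKM in KYSE150 and 193, 178 and 191 in KYSE410. Its difference grew from 4.0 in normoxia to 7.25 ± 0.07 in hypoxia. KRT14, the usual partner of keratin 5, stood at 0.0267 ± 0.0232 and 62.9 ± 1.22 FPKM (SD, n = 3), and KRT6A was listed at 0 in all 3 KYSE150 hypoxia libraries against 17.8 ± 0.587 FPKM. Of 6 keratins of the list that were tested, KRT16 and KRT17 included, 5 were higher in KYSE410 and 1 did not pass, with a median of 5.09 in hypoxia and 3.13 in normoxia. Keratin genes have near-identical copies that FPKM from short reads can split unevenly.

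The stress-linked keratins of that list had small differences in hypoxia. KRT17 had 431, 443 and 406 FPKM in KYSE150 and 535, 537 and 545 in KYSE410, a hypoxia difference of 0.34 ± 0.03. In normoxia KYSE410 was the lower line, with 69.3 ± 2.76 against 213 ± 32.4 FPKM, a difference of -1.6 that had vanished at 0.5% oxygen. KRT16, its neighbour on chromosome 17, went the same way, from -1.96 in normoxia to 0.04 in hypoxia, where it did not pass (limma adjusted p = 0.676). KRT7, a keratin of simple epithelia, was the reverse of the basal keratins, at 124 ± 4.62 FPKM in KYSE150 and 2.57 ± 0.0777 in KYSE410. KRT8 and KRT18, other keratins of simple epithelia, were closer in hypoxia than in normoxia: KRT18 had 369.9 ± 6.97 and 472 ± 5.97 FPKM in hypoxia, a difference of 0.35, against 1.59 in normoxia, and KRT8 differed by 0.6 against 1.49.

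TP63, which encodes the squamous master regulator p63 (chromosome 3, 189596746 to 189897276), had 0.172, 0.299 and 0.161 FPKM in KYSE150 hypoxia and 49.7, 51.3 and 51 in KYSE410 hypoxia. All KYSE150 libraries were under 1 FPKM, at both oxygen levels. SOX15 and GRHL2, further epithelial transcription factors, showed the same split, with differences of 5.88 and 2.52. SOX2, often gained in esophageal squamous tumours, was under 0.1 FPKM in every hypoxia library of both lines and was not tested. The list as a whole was mixed: of 15 squamous lineage factors tested, 8 were higher and 6 lower in KYSE410. Among 17 in the fit of all 12 libraries, 14 differences held (13 without KYSE150 normoxia replicate 2). Over all genes 7.41% held higher and 11.8% held lower. KLF5, KLF4 and PITX1 were among the lower ones, KLF5 with 69.3 ± 5.17 FPKM in KYSE150 and 18.6 ± 0.261 in KYSE410.

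Cell adhesion genes mostly leaned the same way. CDH1, the epithelial cadherin, had 0.144, 0.0737 and 0.0885 FPKM in KYSE150 and 47.5, 46.4 and 46.5 in KYSE410, a difference of 5.44 ± 0.05. CDH3, placental cadherin and its neighbour on chromosome 16, had 0.325 ± 0.0695 and 125 ± 2.92 FPKM. Of 20 epithelial junction genes tested, 16 were higher in KYSE410 and 4 lower, with a median of 1.79 in hypoxia and 2.70 in normoxia. The 4 lower ones were CLDN1, TJP3, ESRP2 and CTNNB1. Of 15 desmosome and hemidesmosome genes, 12 were higher and 3 lower (PLEC, JUP and DSP), with a median of 1.61. DSG3, a desmosomal cadherin of squamous layers, was at 0 in 2 of 3 KYSE150 hypoxia libraries and at 14.2 ± 0.225 FPKM in KYSE410. COL17A1, which anchors basal cells to the basement membrane, differed by 6.43 ± 0.04, and by 4.28 in normoxia.

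The labels name the organ and not a squamous origin. The squamous and epithelial genes KRT5, KRT14, TP63, DSG3 and CDH1 were near 0 in KYSE150 at both oxygen levels, while KRT17, KLF5 and JUP were expressed. Genes of other programs were high in this line. VIM, the mesenchymal filament vimentin (chromosome 10, 17228241 to 17237593), had 559, 543 and 544 FPKM in KYSE150 and 4.14, 3.79 and 3.52 in KYSE410, a difference of -6.84 ± 0.05. S100A4, FSTL1, ZEB1 and SNAI1, genes tied to the mesenchymal state, were also lower in KYSE410, by differences of -5.93, -5.52, -2.68 and -3.08. The mesenchymal list was not one-sided: 9 of 16 were lower in KYSE410 and 7 higher, among them TNC at 4.91 and FN1 at 2.34, both matrix glycoproteins.

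FOLR1, which encodes folate receptor alpha (chromosome 11, 72189709 to 72196323), had the largest difference of all genes tested. It was at 1698, 1706 and 1642 FPKM in KYSE150 hypoxia and 0.973, 0.572 and 0.619 in KYSE410 hypoxia, a difference of -9.94 ± 0.08 against -9.97 in normoxia (difference between the differences 0.03 ± 0.13, limma adjusted p = 0.8695). CGA, the common subunit of the glycoprotein hormones, had 297 ± 12.2 FPKM in KYSE150 and 0.173 ± 0.146 in KYSE410. CPS1, the mitochondrial enzyme that starts the urea cycle, had 281 ± 1.51 and 0.229 ± 0.0305 FPKM, and MUC13, a membrane mucin of the gut, 124 ± 6.96 and 0.0321 ± 0.0278. S100P and IGFBP4, with 148 and 131 FPKM in KYSE150, were listed at 0 in all 3 KYSE410 hypoxia libraries. UBB, a polyubiquitin gene, and EEF1A2, an elongation factor paralog, had differences of -9.2 and -8.4. Both have close relatives elsewhere in the genome, between which the assignment of short reads is uncertain.

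Markers of other cell types were looked up beside these lineage genes. Of 9 columnar and gastrointestinal markers found, 7 had a mean under 1 FPKM in hypoxic KYSE150 and 9 in hypoxic KYSE410, where 6 were at 0 in every library. Their summed level was 13.85 to 14.30 FPKM in KYSE150 and 0.01 to 0.16 in KYSE410. CDX1 and CDX2, the intestinal homeobox factors, were at 0 in both lines, and HNF4A, a transcription factor of liver and gut epithelium, was at 3.94 ± 0.174 in KYSE150 and at 0 in KYSE410. The summed level of 10 fibroblast markers was 5.65 to 6.23 and 0.56 to 0.86 FPKM, with PDGFRA at 0 in both lines and COL1A1 as the only one above 1. That of 9 endothelial markers was 40.12 to 43.91 and 8.93 to 10.66 FPKM, nearly all from EGFL7 and ESAM, with CDH5, PECAM1 and VWF under 0.1. That of 10 leukocyte markers was 27.89 to 31.56 and 80.99 to 85.62 FPKM, nearly all from the lysosomal gene CD68, with PTPRC under 0.1. That of 9 neural markers was 146.44 to 151.62 and 111.66 to 114.53 FPKM, nearly all from ENO2, a glycolytic enzyme, and TUBB3, a tubulin, with CHGA under 0.1. Their part in the lineage differences was not tested.

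**Figure D2:**
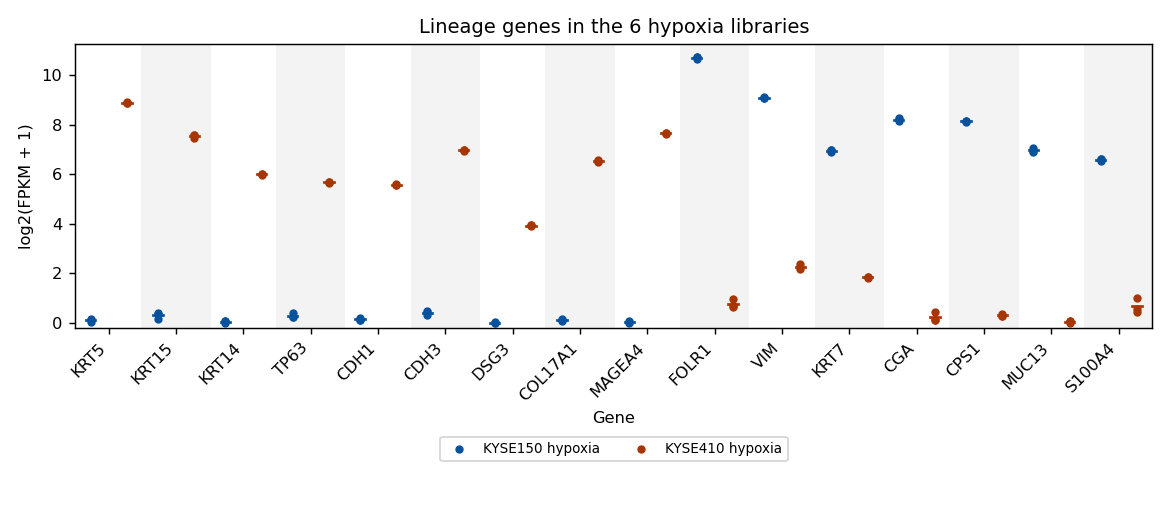
Each point is 1 hypoxia library, 3 per line, in log2(FPKM + 1) on the y axis for 16 genes on the x axis; short bars mark the group means. The 9 genes on the left, from KRT5 to MAGEA4, are near 0 in KYSE150 and the 7 on the right, from FOLR1 to S100A4, are low in KYSE410, with no overlap between the lines.

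Among other held differences, MAGEA4, a cancer-testis antigen on chromosome X, had 0.0226 ± 0.0198 FPKM in KYSE150 and 202 ± 4.12 in KYSE410, while its relative MAGEA1 had 35.1 ± 0.85 and 0.00979 ± 0.0169. Of 13 cancer-testis antigens tested 8 were higher and 5 lower, against 38.9% and 46.4% of all genes. Among 14 in the fit of all 12 libraries, 12 held with and without KYSE150 normoxia replicate 2. Over all genes 7.41% held higher and 11.8% held lower. Several of these antigens are near-identical copies. TSTD1, a small sulfurtransferase, was listed at 0 in all 3 KYSE150 hypoxia libraries and had 83.4 ± 4.17 FPKM in KYSE410. MDK, the growth factor midkine, and LCP1, an actin-bundling protein, differed by 6.87 and 6.57. MMP14, a membrane-bound matrix protease, had 0.0972 ± 0.0346 and 70.6 ± 1.97 FPKM. CCND2, a G1 cyclin, had 0.609 ± 0.0452 and 33.2 ± 2.2 FPKM, while CCND1, the cyclin of the 11q13 region, differed by only 0.5 ± 0.07. MYC, the growth-promoting transcription factor, had 82.3, 73 and 84.2 FPKM in KYSE150 and 4.29, 3.71 and 4.36 in KYSE410, and its difference widened from -2.46 in normoxia to -3.98 in hypoxia.

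Most but not all genes of the oxygen-sensing core were lower in KYSE410. HIF1A, the alpha subunit of HIF-1, had 28.2, 30.6 and 33.5 FPKM in KYSE150 and 30.0, 30.5 and 28.1 in KYSE410, and the ranges overlapped. The difference was -0.06 ± 0.06 (limma adjusted p = 0.4362), against a difference of 0.53 in normoxia. EPAS1, the alpha subunit of HIF-2, was lower in KYSE410, at 8.64, 8.6 and 8.89 FPKM against 21.1, 19.6 and 20.2, a difference of -1.13 ± 0.04. EGLN3, the hypoxia-inducible prolyl hydroxylase, was at 3.79 ± 0.176 FPKM in KYSE150 hypoxia and at 0 in all 3 KYSE410 hypoxia libraries. Of 12 core genes tested 9 were lower (46.4% of all genes), 2 did not pass and 1 was higher (38.9% of all genes), with a median of -1.07. The higher one was CITED2, an inhibitor of HIF that competes for its coactivator, at 47.4, 45.8 and 49.7 FPKM against 15.5, 12.8 and 14.7. In normoxia the lines had 17.1 and 15.9 FPKM, so that its difference of 1.67 ± 0.07 appeared in hypoxia.

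Several standard HIF targets reached similar levels in both lines. Of 38 tested HIF target markers, 5 were higher and 17 lower in KYSE410 by at least 1, against 12.7% and 18.9% of all genes. NDRG1, a hypoxia-inducible stress gene, had 1096, 1072 and 1050.2 FPKM in KYSE150 and 1225, 1124 and 1232 in KYSE410. The hypoxia difference was 0.15 ± 0.04, while in normoxia KYSE410 had 16 ± 2.08 FPKM against 71.1 ± 5.89, a difference of -2.08. LDHA, which turns pyruvate into lactate, had 1869 ± 6.6 and 1413 ± 12.4 FPKM, and its difference shrank from -1.07 to -0.4. CA9, the tumour carbonic anhydrase, went from -1.1 to -0.49. Those 3 differences vanished. LDHA and CA9 missed that class after scaling to a common sum (-0.55 and -0.63 in hypoxia), after quantile normalization (-0.65 and -0.63) and after removal of the length and GC trend, where LDHA was at -0.52 in hypoxia and CA9 at -0.83 in normoxia. SLC2A1, the main glucose transporter, PGK1, a glycolytic kinase, and ANKRD37, a HIF marker, differed by 0.26, -0.41 and -0.24. PDK1, which shuts pyruvate out of the mitochondrion, had 27.1 and 29.1 FPKM and did not pass (limma adjusted p = 0.3161).

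Other targets stood far apart. BNIP3, a mitophagy receptor, kept its distance, at 278, 279.5 and 277 FPKM in KYSE150 and 62.4, 64.2 and 64.9 in KYSE410, with -2.11 in hypoxia and -2.21 in normoxia. SLC2A3, the high-affinity glucose transporter, was the target with the largest positive difference, at 10.7, 12.9 and 10.8 FPKM in KYSE150 and 209, 205 and 214 in KYSE410, and its difference widened from 3.08 to 4.08 ± 0.07. LOX, the collagen crosslinking oxidase, ANGPTL4, a secreted lipase inhibitor, CA12, a carbonic anhydrase, and PLIN2, a lipid droplet coat protein, were expressed in hypoxic KYSE150 at 29.9, 15.9, 17.4 and 67.2 FPKM. In hypoxic KYSE410 they had 0.0387, 0.0142, 0.00213 and 0.0706 FPKM. Each of these differences also existed in normoxia and was wider in hypoxia, for ANGPTL4 -4.05 against -1.35. VEGFA, the vascular growth factor, differed by -1.14 ± 0.05, at 48.9 ± 1.93 and 21.6 ± 1.29 FPKM.

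The differences that appeared in hypoxia were led by genes that one line hardly expressed. EDN2, which encodes the vasoconstrictor endothelin 2 (chromosome 1, 41478775 to 41484683), had 44.7, 58.4 and 48.9 FPKM in hypoxic KYSE150 and 0.372, 0.102 and 0.0311 in hypoxic KYSE410. In normoxia it was at 0.388 FPKM in KYSE150 and listed at 0 in all 3 KYSE410 libraries. Its hypoxia difference was -5.47 ± 0.13 (limma adjusted p = 2.59e-09). PCK1, the cytosolic enzyme that starts gluconeogenesis, had 31, 36.3 and 30.8 FPKM in hypoxic KYSE150 and 0.0125, 0 and 0 in hypoxic KYSE410, with 0.199 and 0 in normoxia. PCK1 differed by -5.06 ± 0.07. Both genes had traces in normoxic KYSE150, and with a pseudocount of 0.1 in place of 1 their differences counted as held, at -2.18 for EDN2 and -1.53 for PCK1 in normoxia. TXNIP, an arrestin that limits glucose uptake, had 89.4, 90.4 and 93.4 FPKM in hypoxic KYSE150 and 0.0146, 0 and 0.0151 in hypoxic KYSE410. Its difference was -2.13 in normoxia, where KYSE150 had 3.43 FPKM, so it counted as held but widened to -6.51 ± 0.04. PFKFB4, which raises glycolytic flux, and STC2, the hormone stanniocalcin 2, had appearing differences of -1.78 and -1.93. SLC6A6, the taurine transporter, had 48.8 ± 1.67 and 5.76 ± 0.245 FPKM in hypoxia and 18.8 ± 4.12 and 15 ± 0.701 in normoxia.

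In the other direction, DEPP1, a gene known to be induced by FOXO factors (chromosome 10, 44976128 to 44978809), had 0.206, 0.13 and 0.328 FPKM in hypoxic KYSE150 and 29.8, 26.7 and 29.5 in hypoxic KYSE410, against 0.266 and 0.383 in normoxia. The difference of 4.61 ± 0.08 was the largest that appeared upward among genes with at least 5 FPKM in 1 group, and after quantile normalization it missed the class by its normoxic size of 0.5. SYTL2, a vesicle docking protein, was under 1 FPKM outside hypoxic KYSE410, where it had 5.63, 5.4 and 5.91. Its difference was 2.57 ± 0.07. ADM, which encodes the vasodilator adrenomedullin, had 184, 198 and 174 FPKM in KYSE150 and 464, 452 and 481 in KYSE410, from near-equal normoxic means of 18.4 and 18.9. HILPDA, a lipid droplet protein, turned: KYSE410 was lower in normoxia at 7.13 ± 0.373 FPKM against 10.6 ± 0.327, and higher in hypoxia at 472 ± 9.42 against 142 ± 11.3. APLN, the peptide apelin, appeared at 1.45. FABP5, a fatty acid carrier with several processed copies in the genome, appeared at 2.81. Of 38 tested HIF target markers, 12 were higher and 25 lower in KYSE410 and 1 did not pass, with a median of -0.58, against -0.45 in normoxia. There were 10 held, 8 appeared, 2 vanished and 2 turned. Over all genes 7.41% held higher and 11.8% lower, and 2.0% appeared higher and 2.92% lower. The shares of all genes were 2.08% and 1.67% for vanished, and 0.648% and 1.18% for turned. Without KYSE150 normoxia replicate 2, 10 HIF markers held, 8 appeared, 3 vanished and 1 turned. As a share of all FPKM the HIF markers made up 1.16 ± 0.055% in hypoxic KYSE150 and 1.08 ± 0.019% in hypoxic KYSE410 (SD, n = 3, exact permutation test, two-sided p = 0.1, the smallest that 3 against 3 can give). In normoxia the order was reversed, at 0.22 ± 0.009% in KYSE150 and 0.27 ± 0.005% in KYSE410, which was not tested.

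**Figure D3:**
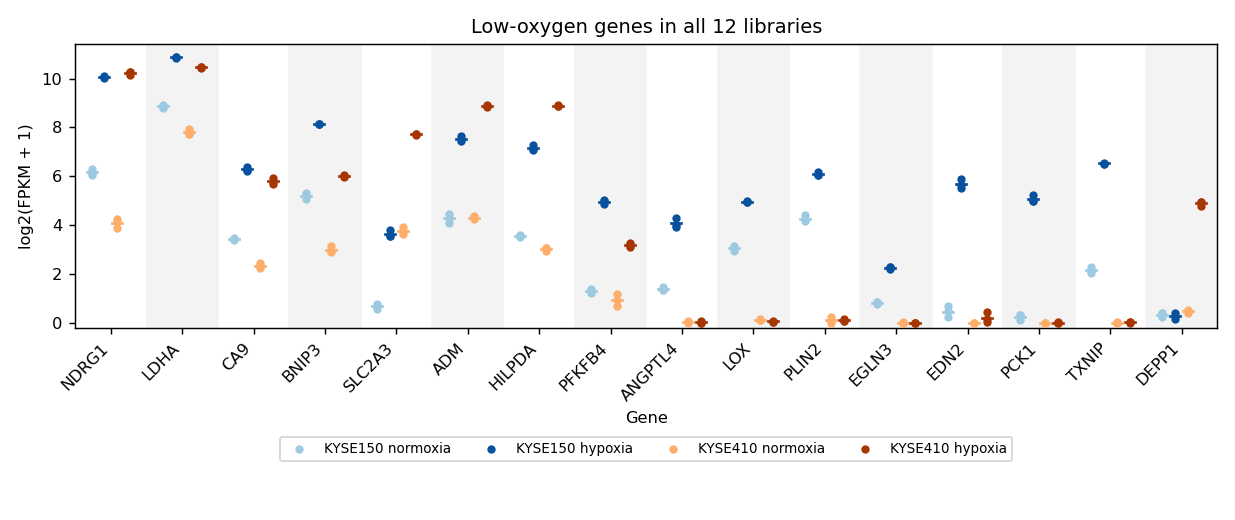
Points are single libraries in log2(FPKM + 1) on the y axis, 3 for each line and oxygen level, for 16 low-oxygen genes on the x axis; short bars mark the group means. NDRG1, LDHA and CA9 end at close levels in hypoxia, while EDN2 and PCK1 reach means of 50.7 and 32.7 FPKM in hypoxic KYSE150, and DEPP1 one of 28.7 FPKM in hypoxic KYSE410, and lie under 1 FPKM in the other groups.

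The promoters of 4 of these genes are shown because HIF binds a short core, ACGTG or GCGTG, and because their differences were wide in hypoxia and small or narrower in normoxia. The sequences are those of the reference, not of the lines. The 250 bases before the RefSeq start site are given 5′ to 3′ on the gene's strand, from build GRCh38.p14, with any match to either core on either strand in capitals. EDN2 lies at chr1:41484684-41484933 on the minus strand, DEPP1 at chr10:44978810-44979059 on the minus strand, ADM at chr11:10304823-10305072 on the plus strand and ANGPTL4 at chr19:8363905-8364154 on the plus strand.
EDN2: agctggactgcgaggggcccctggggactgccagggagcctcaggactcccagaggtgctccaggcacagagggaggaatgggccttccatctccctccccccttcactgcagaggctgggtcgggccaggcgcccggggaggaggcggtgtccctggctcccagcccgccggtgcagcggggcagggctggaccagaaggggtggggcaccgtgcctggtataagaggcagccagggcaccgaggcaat
DEPP1: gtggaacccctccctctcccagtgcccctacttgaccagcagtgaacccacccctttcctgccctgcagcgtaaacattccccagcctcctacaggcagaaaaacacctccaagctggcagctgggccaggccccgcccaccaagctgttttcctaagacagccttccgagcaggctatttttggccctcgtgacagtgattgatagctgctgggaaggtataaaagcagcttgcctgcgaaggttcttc
ADM: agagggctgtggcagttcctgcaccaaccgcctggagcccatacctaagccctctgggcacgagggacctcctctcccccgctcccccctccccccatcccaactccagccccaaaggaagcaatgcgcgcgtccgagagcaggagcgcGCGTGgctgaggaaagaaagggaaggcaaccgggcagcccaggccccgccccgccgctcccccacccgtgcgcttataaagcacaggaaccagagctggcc
ANGPTL4: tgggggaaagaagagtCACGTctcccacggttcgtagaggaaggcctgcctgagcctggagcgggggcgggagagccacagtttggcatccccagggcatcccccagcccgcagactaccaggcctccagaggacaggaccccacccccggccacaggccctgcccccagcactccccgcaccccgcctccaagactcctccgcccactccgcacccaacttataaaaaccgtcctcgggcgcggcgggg
ADM and ANGPTL4 each hold 1 match and EDN2 and DEPP1 hold 0 in this window. At least 1 match was in 11763 of 27305 promoter windows of the table (43.1%), and in 5754 of 9859 that belong to genes of the joint fit (58.4%). It was in 25 of 32 windows of HIF target markers (78.1%), in 84 of 154 genes whose difference appeared upward (54.5%) and in 190 of 314 that appeared downward (60.5%). PCK1, HILPDA and SLC2A3 had no entry.

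Some gaps in which KYSE410 was higher in normoxia were absent or small in hypoxia. HBEGF, a ligand of the EGF receptor, had 1.66, 1.24 and 1.6 FPKM in KYSE150 and 23.9, 22.6 and 27.4 in KYSE410 in normoxia. In hypoxia the values were 1.93, 2.31 and 1.71 and 1.46, 1.56 and 1.99 and overlapped, so a difference of 3.36 became -0.16 ± 0.1 (limma adjusted p = 0.1641). ARRDC4, an arrestin related to TXNIP, went from 3.77 in normoxia to 0.32, through 26.1 and 3.89 FPKM in KYSE410. LIF, an interleukin-6 family cytokine, went from 1.69 to -0.25. Other EGF receptor ligands stayed apart: NRG1, TGFA and AREG differed by 4.15, 3.38 and 3.32 in hypoxia, against 5.79, 3.97 and 4.69 in normoxia. Of 8 ligands and receptors tested, 5 were higher, 2 lower and 1 did not pass. Their median difference was 0.64 in hypoxia and 2.48 in normoxia, and the difference between the differences was negative and passed in 5 of 8, against 35.6% of all genes.

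Most interleukin-1 family and chemokine genes tested were higher in KYSE410. IL1B, interleukin-1 beta, had 0.0346, 0.0492 and 0 FPKM in KYSE150 and 35.9, 38 and 36.3 in KYSE410, a difference of 5.2 ± 0.05. IL1A had 14.5 ± 0.683 FPKM in hypoxic KYSE410, down from 166 ± 30.7 in normoxia, so that its difference narrowed from 7.09 to 3.89. IL6 and CXCL8, an acute-phase cytokine and a neutrophil chemokine, differed by 3.73 and 3.67. Of 12 genes of this list 9 were higher and 3 lower, against 38.9% and 46.4% of all genes, with a median of 1.78. MHC class I genes went the other way, with 11 of 17 lower and 5 higher, against 46.4% and 38.9% of all genes. HLA-B had 164 ± 3.61 FPKM in KYSE150 and 3.14 ± 0.154 in KYSE410, and B2M, the shared light chain, 1025 ± 14.4 and 286 ± 3.75, both held. NLRC5, the transactivator of these genes, was at 4.67 and 3.94 FPKM in normoxia and at 4.78 ± 0.34 and 0.876 ± 0.167 in hypoxia, a difference of -1.63 that appeared. HLA genes are polymorphic, so their FPKM depends on how well reads of each line match the reference.

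Mitotic genes had the most members whose line difference appeared, vanished or turned, 35 of 54. Of the 54 genes for G2 and mitosis, all tested in hypoxia, 52 were lower in KYSE410, 1 was higher (BUB3, 0.53) and 1 did not pass (MAD2L1). The median was -1.08, against 0.23 in normoxia and -0.09 for all genes tested. Differences of 16 genes appeared and 19 turned, all with KYSE410 lower in hypoxia, against 2.92% and 1.18% of all genes. Another 2 held, against 7.41% of all genes held higher and 11.8% held lower. MKI67, the proliferation marker Ki-67, had 47.1, 45.2 and 48.1 FPKM in KYSE150 and 11.3, 10.6 and 9.42 in KYSE410, a hypoxia difference of -2.07 ± 0.06. In normoxia it had 18.6, 7.5 and 19.6 FPKM in KYSE150 and 27.8, 29.1 and 28.5 in KYSE410, so both lines contributed, KYSE150 by a higher value in hypoxia and KYSE410 by a lower one. AURKA, a spindle kinase, went from 0.79 to -1.35, with 32.9, 33.7 and 34.9 FPKM in KYSE150 normoxia and 92.4, 89 and 89.3 in KYSE150 hypoxia. CCNB1, the mitotic cyclin, went from 0.78 to -1.37 and CENPF, a kinetochore protein, from 2.12 to -0.83. BUB1, a checkpoint kinase, and TOP2A, the mitotic topoisomerase, were close in normoxia, at -0.01 and -0.13, and reached -1.84 and -1.64 in hypoxia. PRC1, which bundles the central spindle, had the largest difference of the list at -2.6 ± 0.04 and was also lower in normoxia. Without KYSE150 normoxia replicate 2, 17 differences of the list appeared, 18 turned and 1 held. The number of lower genes was 51 to 52 under the 3 scalings. In these bulk samples, fewer cells of a kind, such as cells in mitosis, and less RNA per cell cannot be told apart.

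Genes of G1/S and DNA replication had another pattern. Of 40 tested, 33 were lower in KYSE410 in hypoxia, 5 higher and 2 did not pass. Here the gap narrowed: the median was -1.30 in normoxia and -0.62 in hypoxia, and the difference between the differences was positive and passed in 32 of 40, against 27.6% of all genes. PCNA, the replication clamp, had 92.9, 92.7 and 97.5 FPKM in KYSE150 and 75, 79.4 and 79.8 in KYSE410, a difference of -0.27, against -1.77 in normoxia. It was 1 of 6 differences that vanished, with RFC4, GINS2, MCM4, TYMS and POLE2. Another 14 held, and both counts were the same without KYSE150 normoxia replicate 2. After scaling to a common sum and after removal of the length and GC trend 4 vanished. Over all genes 1.67% vanished with KYSE410 lower in normoxia, 7.41% held higher and 11.8% held lower. FEN1, a flap endonuclease, had 63.4 ± 1.11 and 11.6 ± 0.343 FPKM, and CCNE1, the cyclin of the G1/S transition, 6.31 ± 0.198 and 0.527 ± 0.117. Outside this list, CDKN1A, the inhibitor p21, was lower in KYSE410 as well, at 14.8 ± 0.612 against 44.3 ± 2.6 FPKM.

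**Figure D4:**
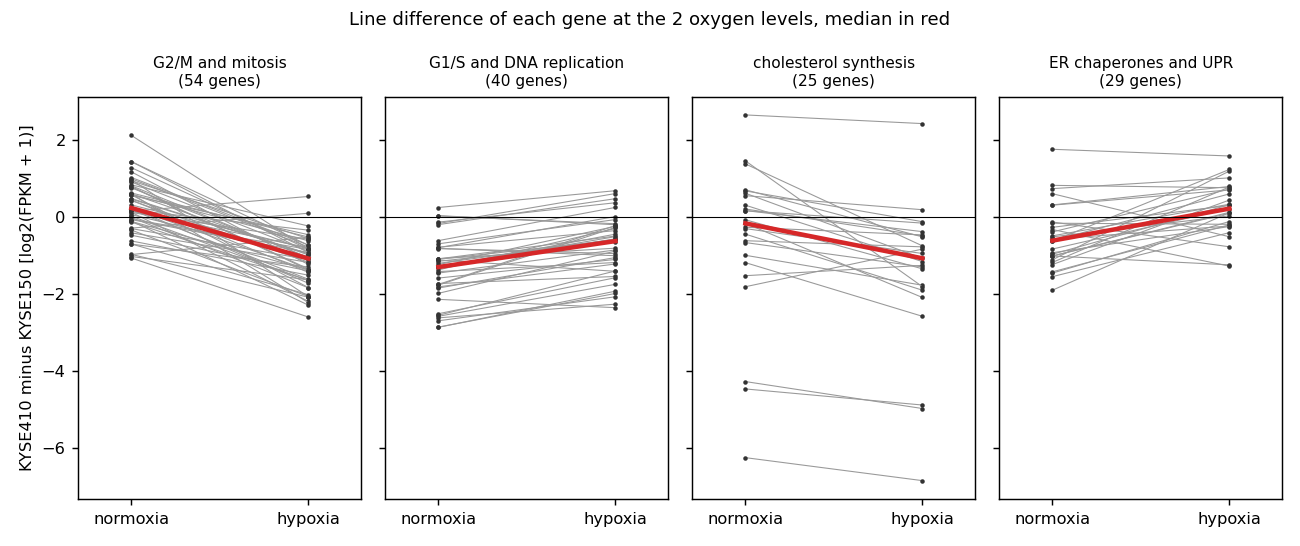
Each grey line joins the line difference of 1 gene in normoxia and hypoxia, KYSE410 minus KYSE150 in log2(FPKM + 1) on the y axis, for 4 gene lists, with the median in red. The G2/M median goes from 0.23 to -1.08 and the cholesterol median from -0.17 to -1.07, while the G1/S median goes from -1.30 to -0.62 and that of ER chaperones from -0.61 to 0.22.

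Promoters of genes active in G2 and mitosis often carry a cell-cycle element read by the DREAM and MuvB complexes, TTTGAA, so the promoters of 4 mitotic genes are shown, chosen for large changes of the line difference between oxygen levels, from the same table and build. Matches to TTTGAA on either strand are in capitals. MKI67 lies at chr10:128126424-128126673 on the minus strand, CENPF at chr1:214602945-214603194 on the plus strand, CKAP2L at chr2:112764610-112764859 on the minus strand and ASPM at chr1:197146670-197146919 on the minus strand.
MKI67: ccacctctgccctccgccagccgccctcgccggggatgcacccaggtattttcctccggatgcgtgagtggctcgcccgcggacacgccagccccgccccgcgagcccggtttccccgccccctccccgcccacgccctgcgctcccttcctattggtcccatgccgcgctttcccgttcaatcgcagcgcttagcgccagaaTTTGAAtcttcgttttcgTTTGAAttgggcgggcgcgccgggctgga
CENPF: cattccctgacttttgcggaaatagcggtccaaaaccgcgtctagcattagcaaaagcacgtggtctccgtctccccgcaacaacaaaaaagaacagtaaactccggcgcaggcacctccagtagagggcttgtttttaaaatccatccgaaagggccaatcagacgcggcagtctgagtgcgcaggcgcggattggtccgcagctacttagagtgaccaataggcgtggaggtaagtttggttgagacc
CKAP2L: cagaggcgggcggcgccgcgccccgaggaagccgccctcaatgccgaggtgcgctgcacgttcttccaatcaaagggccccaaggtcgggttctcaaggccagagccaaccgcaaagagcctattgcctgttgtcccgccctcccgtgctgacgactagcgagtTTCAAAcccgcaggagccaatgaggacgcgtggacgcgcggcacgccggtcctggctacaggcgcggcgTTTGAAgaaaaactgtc
ASPM: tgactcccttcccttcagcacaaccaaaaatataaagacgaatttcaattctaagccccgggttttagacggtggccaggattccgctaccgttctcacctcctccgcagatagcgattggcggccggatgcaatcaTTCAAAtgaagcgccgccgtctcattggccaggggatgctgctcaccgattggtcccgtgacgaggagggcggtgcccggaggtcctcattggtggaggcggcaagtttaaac
MKI67 and CKAP2L hold 2 matches each, ASPM holds 1 and CENPF holds 0. The element was in 24 of 48 windows of the G2/M list and in 1 of 33 of the G1/S list (3.0%). It was in 793 of 9859 windows of genes in the joint fit (8.0%), in 42 of 314 whose difference appeared downward (13.4%) and in 25 of 129 that turned downward (19.4%). The hypoxia difference of CKAP2L, a spindle protein, was -2.22 ± 0.08 and that of ASPM, a spindle pole protein outside the list, -2.96 ± 0.07.

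Most genes of cholesterol synthesis had lower mRNA levels in hypoxic KYSE410. Of 25 genes tested, 21 were lower, 2 higher and 2 did not pass, with a median of -1.07 against -0.17 in normoxia. MSMO1, a sterol oxidase, had 45.8 ± 7.79 FPKM in KYSE150 and 26.6 ± 0.601 in KYSE410. In normoxia the values were 4.21 ± 0.157 and 12.6 ± 1.46 FPKM, so the difference turned from 1.38 to -0.75 ± 0.1, and outside the list SREBF1, a transcription factor of lipid synthesis, from 0.57 to -1.84. FDFT1, squalene synthase, had 108 ± 5.31 and 24.7 ± 1.1 FPKM, a difference of -2.09 that appeared. DHCR7 and ACAT2, the last step of cholesterol synthesis and the enzyme that feeds it with acetoacetyl-CoA, were near 0 in KYSE410 at both oxygen levels, with 30.6 and 29.2 FPKM in hypoxic KYSE150.

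The median line difference of chaperones of the endoplasmic reticulum was below 0 in normoxia and above 0 in hypoxia. Of 29 tested, 16 were higher, 9 lower and 4 did not pass in hypoxia, with a median of 0.22 against -0.61 in normoxia. In 7 a lower level in KYSE410 had vanished and in 4 it had turned to a higher one, against 1.67% and 0.648% of all genes. A further difference appeared and 1 turned with KYSE410 lower, against 2.92% and 1.18% of all genes. Without KYSE150 normoxia replicate 2, 6 vanished, 3 turned and 2 appeared. Scaling to a common sum left 4 that vanished, and quantile normalization left 2 that turned. HSPA5, the chaperone BiP, had 493, 559 and 511 FPKM in KYSE150 and 201, 185 and 182 in KYSE410 in normoxia. In hypoxia it had 355, 385 and 349 and 327, 329.9 and 347, and the difference had gone from -1.45 to -0.12. MANF, a secreted ER stress factor, went from -1.9 to 0.11, which did not pass (limma adjusted p = 0.06566). P4HB and PDIA3, disulfide isomerases, went from -1.23 and -1.01 to 0.44 and 0.1. PPIB, a prolyl isomerase of the ER, turned from -0.62 to 1.23, at 169 ± 0.841 and 398 ± 6.8 FPKM in hypoxia.

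Targets of the stress factor ATF4 split. Of 33 tested, 15 were higher and 15 lower, with a median of -0.01 whose sign changed with scaling. PSPH, the last enzyme of serine synthesis, had 3.29, 3.51 and 3.61 FPKM in KYSE150 and 25.3, 26.2 and 26.5 in KYSE410, from normoxic means of 45.2 and 44.1, so that both lines had less in hypoxia, KYSE150 most. ASNS, asparagine synthetase, had 13.2 ± 0.738 and 55.7 ± 5.29 FPKM in hypoxia and 247 ± 13.7 and 209 ± 4.14 in normoxia, an appearing difference of 2.0. SLC3A2, the shared chain of amino acid transporters, appeared at 1.9. PHGDH, the first enzyme of serine synthesis, was lower in KYSE410 at both levels, at -2.36 in hypoxia. TRIB3, a pseudokinase of the same response, appeared in the opposite direction at -1.27. SLC7A11, the cystine transporter, and GDF15, a stress cytokine, appeared at 1.04 and 1.77.

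FTL, the ferritin light chain, had 561, 569.7 and 533 FPKM in KYSE150 and 2325, 2397 and 2449 in KYSE410, a difference of 2.11 ± 0.03 that had been 0.18 in normoxia. HSPE1, the mitochondrial cochaperonin, appeared at 1.63 and PRDX1, a peroxidase, lost a difference of -1.96 to reach -0.21. All 4 genes tested for metallothioneins, which bind zinc and copper, were higher in KYSE410. MT2A had 136 ± 2.14 and 2171 ± 96.9 FPKM, MT1X differed by 3.31 and MT1E by 5.17, each more than in normoxia, and MT1F was listed at 0 in KYSE150 and at 27.4 ± 2.54 FPKM. These genes are close copies of each other. The list that holds them had 6 of 8 genes higher, and the 2 lower ones were the zinc transporters SLC30A1 and SLC39A10, at -2.02 and -1.06. CYP1A1, the main target of the aryl hydrocarbon receptor, had 1.17, 0.865 and 0.797 FPKM in KYSE150 and 88.3, 84.7 and 96.8 in KYSE410, a difference of 5.55 ± 0.08 against 1.84 in normoxia. AHRR, the repressor of that receptor, was listed at 0 in all 3 KYSE410 hypoxia libraries and at 11.7 ± 0.49 FPKM in KYSE150. AKR1C2 and AKR1C3, reductases of steroids and aldehydes, were held lower, at -3.88 and -5.04.

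Of 22 oxygen-dependent histone and DNA demethylases tested, 17 were lower in KYSE410, 4 higher and 1 did not pass, with a median of -0.60 against 0.29 in normoxia. KDM3A, itself a HIF target, appeared at -1.13, with 58.7 ± 1.1 and 26.2 ± 1.14 FPKM in hypoxia. KDM7A turned from 0.63 to -2.23. KDM5B was lower at both levels, at -2.75 in hypoxia, and KDM4C higher at both, at 1.9. The difference between the differences was negative and passed in 19 of 22, against 35.6% of all genes.

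Nuclear genes for oxidative phosphorylation leaned toward KYSE410 in hypoxia, with 48 of 65 higher, 10 lower and 7 that did not pass, and a median of 0.41 against -0.14 in normoxia. UQCR10 and UQCR11, subunits of complex III, had 64.2 ± 1.18 and 45.6 ± 0.811 FPKM in KYSE410 and 21.1 ± 1.1 and 14.6 ± 0.866 in KYSE150. SDHA, the catalytic subunit of complex II, was the exception in size, at -1.74 ± 0.1. It lies near the end of the short arm of chromosome 5 (chromosome 5, 218320 to 268746), where 22 genes between 196868 and 2751677 had a median of -1.5 in hypoxia and -1.62 in normoxia and 2 of 22 were higher in KYSE410. The mitochondrially encoded mRNAs were mixed, with 6 of 13 higher and 5 lower: ND1 at -1.5 and ND4 at 1.07, both subunits of complex I, held in opposite directions. Together the 13 made up 3.04 ± 0.286% of all FPKM in KYSE150 and 3.98 ± 0.167% in KYSE410 (SD, n = 3, exact permutation test, two-sided p = 0.1). In normoxia their shares were 6.25 ± 0.864% in KYSE150 and 9.82 ± 0.413% in KYSE410, a difference that was not tested.

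Cytosolic ribosomal proteins held 21.12 ± 0.096% of all FPKM in hypoxic KYSE150 and 22.26 ± 0.278% in hypoxic KYSE410 (SD, n = 3, exact permutation test, two-sided p = 0.1), and glycolysis genes 3.41 ± 0.042% and 3.58 ± 0.068% (p = 0.1 in the same exact test). In normoxia KYSE150 had the higher ribosomal share, at 17.04 ± 1.879% (15.79 to 19.2%) against 13.33 ± 0.077% in KYSE410. Glycolysis genes then held 1.25 ± 0.039% in KYSE150 and 1.17 ± 0.035% in KYSE410. The normoxic shares were not tested. Of 79 ribosomal protein genes 47 were higher, 22 lower and 10 did not pass, but after quantile normalization 37 were higher and 38 lower. RPL9 and RPL36 differed by 1.68 and 1.42. In 11 of the 79 a normoxic difference with KYSE410 lower vanished, against 1.67% of all genes. Without KYSE150 normoxia replicate 2 that count was 0, so the count of vanished differences rests on that library. The difference between the differences was positive and passed in 78 of 79, against 27.6% of all genes, and in 77 without that library. It did so in 73 after scaling to a common sum and in 35 after quantile normalization. Short transcripts moved with these lists. The median difference of 966 genes with a longest transcript of up to 1000 nt was 0.22 in hypoxia and -0.16 in normoxia, and that of 2220 genes over 6000 nt was -0.20 and 0.24. Across genes the difference between the differences followed transcript length with Spearman rho = -0.337. With a trend on length and GC content removed, 2 ribosomal differences vanished, and 43 were higher and 28 lower in hypoxia. The G2/M list then had 52 lower, 18 appeared and 18 turned. The part of length in these results was not tested further.

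**Figure D5:**
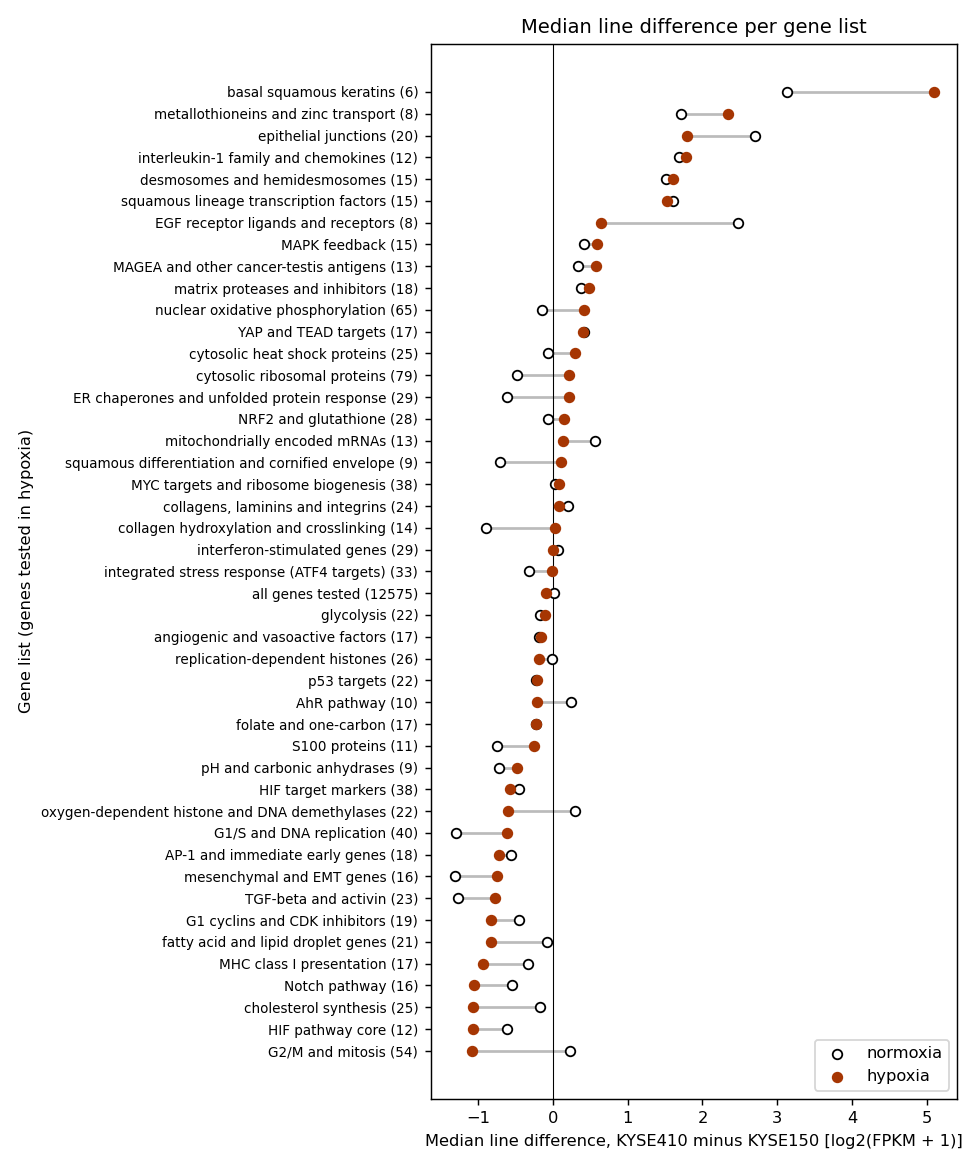
Each row is a gene list with at least 6 genes tested, ordered by its median line difference in hypoxia (filled points), with the median in normoxia as open points, both KYSE410 minus KYSE150 in log2(FPKM + 1). Squamous keratins lie at 5.09 in hypoxia and G2/M genes at -1.08, and all genes tested at -0.09.

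Several genes outside these lists changed order as well. EIF4EBP1, a repressor of cap-dependent translation, had 232, 316 and 232 FPKM in KYSE150 and 106, 98 and 100.4 in KYSE410 in normoxia. In hypoxia it had 56.7, 53.4 and 55.9 and 127, 121 and 129, so the difference turned from -1.33 to 1.17 ± 0.04 and the groups did not overlap at either level. HSPB8, a small heat shock protein, turned from -1.13 to 1.43. GAB2, a docking protein of receptor kinases, went the other way, from 1.24 to -1.82, with 3.22, 2.28 and 3.56 FPKM in normoxic and 11.4, 10.4 and 10.6 in hypoxic KYSE150, and 8.11, 9.04 and 8.16 and 2.33, 2.26 and 2.47 in KYSE410. NT5DC2, a nucleotidase family member, was lower in normoxic KYSE410 by a difference of -2.19 and differed by 0.05 ± 0.07 in hypoxia (limma adjusted p = 0.5019). SH3PXD2A, the scaffold of invadopodia, lost a difference of 1.5 and stood at -0.43 in hypoxia.

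Of Notch pathway genes 13 of 16 were lower in KYSE410, against 46.4% of all genes. NOTCH3, a receptor, was among them, at -2.39 ± 0.05, with 18.5 ± 0.978 and 2.71 ± 0.081 FPKM. The 3 higher ones were the ligands DLL1 and JAG1 and the target HES1, the last with 15.1, 17.7 and 14.7 FPKM in KYSE150 and 35.8, 37 and 37.2 in KYSE410, a difference of 1.16 that appeared. In the TGF-beta and activin list 16 of 23 were lower and 5 higher, against 46.4% and 38.9% of all genes. BMP2, a ligand, and TGFBR3, a coreceptor, differed by -3.46 and -3.11, and TGFB2, another ligand, by 3.29. EGFR, the EGF receptor, had 36.6, 37.6 and 38.7 FPKM in KYSE150 and 71.5, 70.7 and 73 in KYSE410, a difference of 0.91 ± 0.03. Its normoxic difference of 1.6 was not shown to differ from this (limma adjusted p = 0.06103). ERBB3, a related receptor, appeared in the other direction, at -1.32.

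By position, the lowest medians of whole chromosomes were those of X, 9 and 1, with -0.42, -0.36 and -0.33 in hypoxia and -0.43, -0.24 and -0.20 in normoxia. Among windows of 5 Mb with at least 15 genes, the highest median was on chromosome 18 between 60016590 and 64019779, where 14 of 15 genes were higher in KYSE410 and the median was 1.34 in hypoxia and 1.14 in normoxia. Positions are those of RefSeq on GRCh38.p14, and the submitters' processing notes name hg38.

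The class of some named genes changed when 1 library was left out. Without KYSE150 normoxia replicate 2 the normoxic difference was -0.7 for ASPM, -0.51 for KDM3A, 0.57 for UQCR10 and 0.65 for UQCR11, so these no longer counted as appearing, and it was -0.95 for PDIA3, which no longer counted as vanishing. HILPDA, PPIB, CKAP2L and KDM7A then appeared rather than turned, with normoxic differences of -0.5, -0.48, 0.43 and 0.43. HILPDA did so too without KYSE410 normoxia replicate 3, at -0.48. EDN2 missed the class without KYSE150 normoxia replicate 3, at -0.58 in normoxia. RPL9 missed the held class without KYSE150 normoxia replicate 1 or 3, at 0.9 and 0.94 in normoxia, and without KYSE410 normoxia replicate 1, at 0.99. CA9 missed the vanished class without KYSE150 hypoxia replicate 2 or 3 or KYSE410 hypoxia replicate 1, at -0.51, -0.51 and -0.56 in hypoxia. POLE2, a DNA polymerase subunit, missed it without KYSE150 hypoxia replicate 1 or 2 or KYSE410 hypoxia replicate 2 or 3, at -0.51, -0.53, -0.55 and -0.51. SNRPN, a splicing protein gene, missed it without KYSE150 hypoxia replicate 2, at -0.53, and LOC105369914 no longer appeared without KYSE410 normoxia replicate 1 or 2, at 0.55 in normoxia in both cases. Scaling to a common sum also ended the class of TYMS, POLE2, PDIA3, ND4, PRC1, SLC7A11, UQCR10, UQCR11 and LOC105369914, and SH3PXD2A then turned. Quantile normalization ended that of ADM, ANGPTL4, ARRDC4, FTL, ND4, PDIA3, PPIB, RPL36, TYMS, UQCR11 and LOC105369914, with ADM at 0.95 and ARRDC4 at 0.56 in hypoxia. Removal of the length and GC trend ended it for PCNA, RFC4, TYMS and POLE2, at -0.58, -0.51, -0.60 and -0.74 in hypoxia, and for ANGPTL4, ASPM, EGFL7, GDF15, HES1, KDM3A, RPL36, TRIB3, UQCR10 and UQCR11. HILPDA, PPIB, CKAP2L and KDM7A then appeared rather than turned, while P4HB and SLC7A11 turned. With a pseudocount of 0.1, PFKFB4 and POLE2 fell in no class, and with median-of-ratios scaling RPL9 fell in none.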

How the data were processed

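RNA of 2 esophageal cancer cell lines was sequenced in 12 libraries, 3 per line at each of 2 oxygen levels, after TRIzol extraction and capture of mRNA on beads, per the labels' protocols. The submitters' processing notes name bcl2fastq 2.20, fastp 0.22.0, HISAT2 2.2.1 and hg38. The tool behind the deposited FPKM values, its annotation and its use of strand were not given in the sources used here. That the unit is FPKM was inferred from the deposited values, which are not whole and sum to different totals per library. The tables had 30703 and 30106 genes, of which 26115 were in both, and a missing gene was set to 0, which touched 218 tested genes.

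Values were taken as log2(FPKM + 1). limma 3.58.1 in R 4.3.3, with an empirical Bayes trend, was fitted to the 6 hypoxia libraries over genes averaging 1 FPKM or more, and p-values were adjusted by Benjamini and Hochberg over all 12575 genes. The same fit over all 12 libraries tested the line difference at each oxygen level and the difference between the 2. Shares of all FPKM were compared by exact permutation tests. The fits were tested on simulated data with 100 genes changed by 0.5 and 100 by 1. The hypoxia fit recovered 83% and 98% of these, and 2.7% of its calls were false. The test of the difference between the line differences recovered 46% and 87%, and 7.6% of its calls were false. The changed genes were drawn from those with a mean above 2 on the log2 scale. All other genes were simulated without a difference and with independent noise, while 85.3% of genes passed in the real hypoxia fit. These rates therefore describe the simulation and do not give the share of false calls in these data. Since the labels do not tell whether replicates were grown separately, the p-values reflect a spread that may be technical. The depth behind FPKM is unknown.

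Named genes were the 10 largest differences each way with at least 5 FPKM in the higher line, the 4 most different called members of each list, the 6 largest changes of the line difference in each direction of each class, up to 3 members per list that changed class, and a preset group. Other members of the lists were added with their values in view, and some genes that the rule names are not reported here. The members and lists were chosen with earlier results of these data known. The alternatives were 3 scalings, a pseudocount of 0.1, no filter and a filter of 5 FPKM, genes in both tables only, a replicate block, an adjusted p of 0.01, other class limits and each library left out. Added after seeing the data were the removal of a trend on transcript length and GC content (of the longest GENCODE 29 transcript, known for 94.5% of genes), the lists under these settings and a second denominator for shares.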

Additional observations from a re-analysis of the deposited data

Results flagged for a closer look

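The line difference in hypoxia differed from that in normoxia, by the test of the difference between the 2 (limma, Benjamini-Hochberg adjusted over 13423 genes), in 8479 genes. Genes with wide changes in each class are listed here with the hypoxia difference minus the normoxia difference on the log2(FPKM + 1) scale. It was 4.48 for DEPP1 and 2.90 for LOC105369914, an uncharacterized transcript with 9.85 FPKM in hypoxic KYSE410, whose differences appeared upward. It was -5.01 for EDN2 and -4.81 for PCK1, which appeared downward. It was -3.52 for HBEGF and -3.46 for ARRDC4, which vanished from above. It was 3.36 for SNRPN and 2.90 for LINC02806, which vanished from below. SNRPN shares its transcript with SNURF, and its hypoxia values of 10.4, 3.49 and 6.51 FPKM in KYSE150 and 3.84, 8.62 and 4.69 in KYSE410 overlapped. It was 2.79 for H4C8, a histone gene with near-identical copies, and 2.56 for HSPB8, which turned upward, and -3.06 for GAB2, which turned downward.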

How the results depend on the processing

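Depth and a count model could not be examined from FPKM alone, and 221 tested genes were at 0 in all 3 hypoxic KYSE410 libraries and 64 in those of KYSE150. The labels' replicate numbers were not taken as pairs, since the deviations of equal-numbered hypoxia libraries correlated at 0.066, 0.029 and 0.002 across genes. With the replicate block 4885 genes were higher and 5827 lower, 1600 and 2382 by at least 1, and the classes held 995 and 1584, appeared 269 and 393, vanished 279 and 223 and turned 87 and 157.

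With a filter of 5 FPKM, 3499 genes were lower, 1042 were higher by at least 1 and 1335 lower by at least 1, 910 held lower and 180 vanished from above; fewer genes were tested. With a size of at least 1.5 in place of 1, 496 and 971 held, 82 and 86 appeared and 47 and 50 vanished. With calls only and no size limits, 3556 and 4101 held, 621 and 834 appeared, 797 and 581 vanished, and 447 and 767 turned. Scaling to a common sum gave 155 and 602 appearing, 496 and 134 vanishing and 41 and 271 turning, in the order higher and lower, and a pseudocount of 0.1 gave 257 turned to lower. The removal of length and GC trends gave 57 turned to higher. The cause of the shifts under scaling, pseudocount and trend removal was not tested.

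Leaving out 1 library gave 4719 to 4821 genes higher, 5651 to 5770 lower, 1576 to 1624 higher and 2357 to 2397 lower by at least 1. The classes then ranged from 981 to 1003 and 1563 to 1594 for held, 242 to 280 and 381 to 418 for appeared, 218 to 319 and 185 to 255 for vanished, and 71 to 95 and 133 to 175 for turned.

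Of 2823 single-gene values recomputed for 178 named genes, 2766 kept direction and side of the threshold, 23 lost the call, 13 gained one and 21 changed sign. Many of these genes were named for large differences in the same libraries, so the tally does not speak for genes at large. Under quantile normalization the sign changed for HBEGF (0.11), NDRG1 (-0.0536), PDIA3 (-0.0763) and SNRPN (0.0226), and under median-of-ratios scaling for HIF1A (0.0071). Under a common sum it changed for KRT16 (-0.075), MAD2L1 (-0.037), MANF (-0.0284), NT5DC2 (-0.0768), PDIA3 (-0.0417) and PDK1 (-0.044). With length and GC trends removed it changed for MANF (-0.0425), PDIA3 (-0.0011), PDK1 (-0.0238) and TJP3 (0.0506). Leaving out 1 library gave a range across 0 for HIF1A from -0.1146 to 0.0065, for KRT16 from -0.0085 to 0.1304, for NT5DC2 from -0.004 to 0.1285 and for SNRPN from -0.5277 to 0.1453. None of these 4 genes passed the test with all 6 hypoxia libraries. ANKRD37, HSPA5 and SLC2A1 were among those that lost the call, under 5, 6 and 1 settings.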
